A study of Mus musculus with 6 samples.

Results

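Proliferating neutrophil precursors were selected on their measured UMI values among cells of the mouse cranial bone marrow. A cell counted as a member when it had at least 2 unique molecular identifiers (UMIs, each standing for 1 captured transcript) of Fcnb, at least 3 of Camp, Ngp and Ltf together, at least 2 of Mki67 and Top2a together and 0 of Csf1r. Of 37576 cells within the quality limits (from 500 up to 5000 genes, more than 500 UMIs and a mitochondrial share below 25%), 1046 met this rule. Because the rule reads measured UMIs, the levels of its 7 genes are given below as a description and carry no test. The study asked how the stem cell niches of the skull change with age and with distance from the suture.

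The calvaria came from wild-type C57BL/6 mice, stated to be male and with no treatment named, and several mice were pooled in each age group. The ages were 2 months (02m), 12 months (12m) and 18 months (18m). CBMA denotes the sagittal suture with the parietal bone next to it, and CBMD denotes parietal bone away from sutures. Dura and periosteum were stripped, the bone was digested with collagenases and dispase, red blood cells were lysed and dead cells were removed before 10x Genomics capture. Every age and site gave 1 library, so no difference between ages could be tested across mice. Intervals beside the values therefore cover counting error alone, and both sites of an age may stem from the same mice and were not taken as replicates.

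Neutrophils arise in the marrow through myeloblast, promyelocyte and myelocyte stages, and only the early stages divide. Each stage fills another kind of granule. Azurophil granules with myeloperoxidase and serine proteases come first, specific granules with lactoferrin and cathelicidin follow in myelocytes, and gelatinase granules come last, in cells that have left the cycle. Interferon-stimulated genes are switched on by interferons through the factor ISGF3, which binds an interferon-stimulated response element in their promoters, while many genes of the late cell cycle carry a cell cycle homology region through which the DREAM and MuvB complexes act.

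The members were checked on markers that the rule did not use. A transcript of Cebpe, the transcription factor required for specific granules, was found in 79.0% to 85.1% of members per library, against 0% to 11.1% of B-lineage cells (at least 2 UMIs of Cd79a) and 0.824% to 5.71% of T cells (at least 2 UMIs of Cd3e and Cd3d). Lcn2 (lipocalin 2, a specific granule protein) was found in 92.5% to 97.5% of members and Chil3, a chitinase-like secreted protein, in 96.8% to 98.8%. Ube2c, a ubiquitin-conjugating enzyme of mitotic exit, was found in 69.9% to 79.0% of members and Cdk1, the mitotic kinase, in 41.8% to 64.6%. Birc5, also a gene of the G2 and M phase, was found in 51.4% to 65.3%. Gfi1, a repressor of the neutrophil lineage, was the least frequent, in 25.9% to 46.1% of members against 5.00% to 16.7% of B-lineage and T cells. These genes were also picked up in other cells, Lcn2 in 13.2% to 48.6% and Chil3 in 13.2% to 56.2% of B-lineage and T cells. S100a8 and S100a9, the subunits of calprotectin, were found in all 1046 members but also in 71.9% to 100% of B-lineage and T cells, so their bare presence does not mark a neutrophil here.

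Granule transcripts were also found in B-lineage and T cells, at shares that differed between libraries. At least 3 UMIs of Camp, Ngp and Ltf were carried by 75.9% of B-lineage cells and 79.0% of T cells in CBMA_12m, against 9.09% and 15.4% in CBMA_02m and 5.84% and 4.95% in CBMA_18m. In the CBMD libraries these shares ran from 0% to 17.2%. The Fcnb threshold was met by at most 1.85% of B-lineage cells and 3.27% of T cells. Of the T cells, 2, 3 and 2 in the CBMA libraries and 0, 1 and 0 in the CBMD libraries (02m, 12m and 18m) met the whole rule. In CBMA_18m 1 B-lineage cell met it too. Among B-lineage cells with at least 2 UMIs of Mki67 and Top2a, 2 of 17 in CBMA_18m (11.8%) met the Fcnb threshold, against none in the other libraries. Whether the granule and Fcnb transcripts of such cells came from free RNA in the suspension or from cells captured together was not tested. Their part in the member shares was not tested either.

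Of the members, 107 had just 2 UMIs of Fcnb, 28 had 3 to 5 of the granule transcripts and 64 had just 2 of Mki67 and Top2a. Just outside the rule, 161 cells lacked 1 Fcnb UMI, 35 lacked 1 granule UMI and 62 lacked 1 cell cycle UMI with the other conditions met. A further 147 cells met all conditions but carried Csf1r, the receptor for M-CSF on monocytes, and 43 were above 5000 genes. In 114 members Camp, Ngp and Ltf made up less than 1% of the UMIs. The members held 8843500 UMIs. Their medians per cell were 5501, 9973 and 8928 in CBMA_02m, CBMA_12m and CBMA_18m. In CBMD_02m, CBMD_12m and CBMD_18m they were 5000, 7835 and 7055, so the older members held more UMIs per cell. Over all cells within the quality limits the medians were 3930.5, 2806 and 3738 in CBMA (02m, 12m and 18m). In CBMD they were 3641.5, 3486.5 and 3287.5, so cells of the older libraries did not hold more UMIs in general. No pair of libraries shared a member barcode, although 7 to 25 barcodes of any kind were shared by each pair.

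The 12m libraries went against the stated sex. Xist, the RNA that silences 1 X chromosome in female cells, reached 732 CPM (the UMIs of a gene summed over members, scaled to a total of 1000000 UMIs) in CBMA_12m and 1260 CPM in CBMD_12m, with a UMI in 119 of 206 members (57.8%, 95% interval 50.7 to 64.6) and 54 of 70 (77.1%, 65.6 to 86.3). In the 4 libraries of 02m and 18m not 1 of the members had a Xist UMI, and Y-linked transcripts were found in all 6 libraries. The 12m values below are thus given with this in view, and comparisons of 18m with 02m do not rest on them. Members with a Y-linked UMI and no Xist UMI numbered 49 in CBMA_12m and 10 in CBMD_12m. Their medians were 13991 and 9416.5 UMIs, against 10069.5 and 6911 in members with Xist and no Y-linked UMI. 

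Promoters are printed for sequence context, and only for genes in which the motif was found, so each printed one holds a match by choice. Coordinates and bases are those of RefSeq on GRCm38.p6, and the sequences run 5′ to 3′ along the strand of the gene. The first set belongs to interferon-stimulated genes that were lower in 12m or 18m members at both sites, and capitals mark each match to the core of the response element, TTTC followed by any 2 bases and TTTC again, on either strand.
Ifitm3, chr7:141010695-141010794, minus strand: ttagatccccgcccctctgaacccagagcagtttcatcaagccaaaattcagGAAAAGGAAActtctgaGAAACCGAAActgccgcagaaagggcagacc
Isg15, chr4:156200830-156200929, minus strand: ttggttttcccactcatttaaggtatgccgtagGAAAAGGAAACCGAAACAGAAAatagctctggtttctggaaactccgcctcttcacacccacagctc
Trim30a, chr7:104446076-104446175, minus strand: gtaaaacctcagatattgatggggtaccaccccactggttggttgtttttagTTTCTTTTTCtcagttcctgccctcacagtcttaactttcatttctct
Ddx58, chr4:40239776-40239875, minus strand: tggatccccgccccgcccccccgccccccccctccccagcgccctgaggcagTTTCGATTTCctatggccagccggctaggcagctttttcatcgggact
Rsad2, chr12:26456518-26456617, minus strand: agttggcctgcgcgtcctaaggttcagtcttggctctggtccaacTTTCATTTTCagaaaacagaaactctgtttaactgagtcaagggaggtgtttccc
Slfn5, chr11:82951902-82952001, plus strand: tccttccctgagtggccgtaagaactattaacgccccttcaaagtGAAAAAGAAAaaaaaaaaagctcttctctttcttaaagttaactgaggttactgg
In Isg15 3 matches overlap in 1 run. Of the 44 genes on the interferon-stimulated list, 33 were matched to a promoter window, which reached 250 bases before to 50 after the start, and 20 of these (60.6%) held the motif, against 3.44% of all 32851 windows. Oasl2 and Slfn4, which are named below as lower, had no match in their windows.

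The second set belongs to genes whose level was higher in members than in non-cycling cells with the same granule transcripts in each library, and capitals mark TTTGAA, the letters of the cell cycle homology region, on either strand.
Hmmr, chr11:40733388-40733467, minus strand: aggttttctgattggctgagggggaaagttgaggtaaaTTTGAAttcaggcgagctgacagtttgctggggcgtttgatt
Smc2, chr4:52439191-52439270, plus strand: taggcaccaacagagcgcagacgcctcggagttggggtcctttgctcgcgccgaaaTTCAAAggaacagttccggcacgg
Prc1, chr7:80294409-80294488, plus strand: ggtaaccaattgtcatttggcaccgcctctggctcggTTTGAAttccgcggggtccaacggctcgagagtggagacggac
Knl1, chr2:119047089-119047168, plus strand: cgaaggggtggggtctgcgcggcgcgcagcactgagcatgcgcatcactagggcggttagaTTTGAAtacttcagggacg
Of the 65 genes on the G2 and M phase list, 55 were matched and 40 (72.7%) held TTTGAA, against 17.9% of all windows, while 41 (74.5%) held the CCAAT box, against 37.4%. A match describes letters and not a bound site.

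The precursors formed a larger share of the cells near the suture than away from it at 02m and 12m, and within CBMA the 18m share was the lowest of the 3 ages. They made up 5.80% of CBMA cells at 02m (95% Clopper-Pearson interval 5.32 to 6.32), 7.58% at 12m (6.61 to 8.64) and 1.71% at 18m (1.43 to 2.04). The CBMD shares were 0.842% at 02m (0.653 to 1.07), 1.57% at 12m (1.22 to 1.98) and 1.22% at 18m (0.972 to 1.52). The CBMA intervals of the 3 ages did not overlap. The interval of CBMD_18m overlapped those of CBMD_02m, CBMD_12m and CBMA_18m.

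Since a deep cell passes a rule on UMIs more readily, each cell was also thinned to 3000 UMIs, which left 22613 cells. The thinned shares were 5.44%, 10.7% and 1.96% in CBMA (02m, 12m and 18m) and 0.822%, 1.80% and 1.73% in CBMD. The order of ages within CBMA was unchanged by thinning. In CBMD the thinned interval at 18m (1.34 to 2.21) lay above that at 02m (0.588 to 1.12), whereas these intervals overlapped without thinning. Among cells with at least 2 UMIs of Mki67 and Top2a, of whatever type, the precursors were 22.2%, 40.2% and 16.7% in CBMA, with 4.84%, 14.3% and 10.5% in CBMD. A share falls either with fewer precursors or with more cells of other kinds in the suspension, and these cannot be told apart here.

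**Figure D1:**
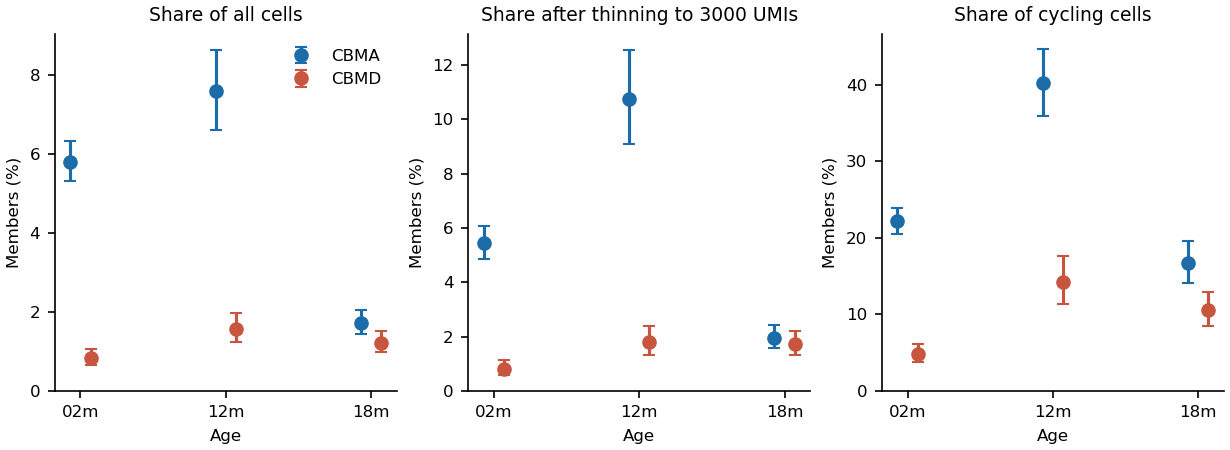
Share of proliferating neutrophil precursors (y axis, %) by age at each site, among all cells within the quality limits (left), among cells thinned to 3000 UMIs (middle) and among cycling cells (right), with exact binomial 95% intervals as bars. Among all cells the CBMA share of 1.71% at 18m lies below 5.80% at 02m and 7.58% at 12m. The CBMD shares lie between 0.842% and 1.57% among all cells and between 0.822% and 1.80% after thinning.

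The genes of the rule, on which the members were chosen, are described without a test. Fcnb (ficolin B, a lectin of immature neutrophils) stood at 1598, 1486 and 2209 CPM in CBMA (02m, 12m and 18m) and at 1365, 1807 and 2520 CPM in CBMD. Camp, the cathelicidin precursor, ranged from 30115 to 42256 CPM, Ngp (neutrophilic granule protein) from 15280 to 23001 CPM and Ltf (lactoferrin) from 3994 to 6783 CPM. Mki67, a chromosome surface protein of dividing cells, ranged from 768.0 to 1570 CPM and Top2a (topoisomerase II alpha) from 537.4 to 878.0 CPM. Csf1r was 0 by the rule.

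The members spanned the step between azurophil and specific granules. Mpo, Elane and Prtn3 together made up at least 0.1% of the UMIs in 40.0% of CBMA_02m members (95% interval 35.6 to 44.4), 50.0% in CBMA_12m (43.0 to 57.0) and 37.1% in CBMA_18m (28.6 to 46.2), and in 31.3% (20.6 to 43.8), 42.9% (31.1 to 55.2) and 50.6% (39.3 to 61.9) of CBMD members at 02m, 12m and 18m. A bare UMI of Mpo said little, since it was found in 88.3% of CBMA_12m members and in 81.5% of B-lineage cells of that library, where its level was 2418 CPM in members against 151.9 CPM in B-lineage cells. The median share of Camp, Ngp and Ltf in a cell was 5.50%, 7.36% and 6.24% in CBMA, with 4.34%, 5.82% and 4.91% in CBMD (02m, 12m and 18m), with the 10th percentile between 0.476% and 1.49%.

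Cells rich in azurophil transcripts looked earlier by other genes as well. In CBMA_02m the azurophil-rich members had 1362 CPM of Ltf against 5634 CPM in the remaining members, 4146 against 12440 CPM of Lcn2, and 16.2 against 195.6 CPM of Ly6g, the surface marker of later neutrophils. They had more ribosomal protein transcripts, 92603 against 39741 CPM, more S phase transcripts, 3722 against 2451 CPM, and more Gfi1, the repressor that directs progenitors to the neutrophil fate, at 103.1 against 37.4 CPM. In CBMA_18m the same split gave 71811 against 32429 CPM of ribosomal proteins and 4632 against 2932 CPM of S phase transcripts, and in CBMD_18m 70130 against 32443 CPM and 3211 against 2474 CPM. The split itself used Mpo, Elane and Prtn3, so nothing was tested on it.

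The 57 members of CBMA_02m with less than 1% granule transcripts carried 456.5 CPM of F13a1 and 107.8 CPM of Irf8, genes of the monocyte branch, and the 9 such members of CBMD_18m carried 362.9 and 125.2 CPM. In CBMA_12m and CBMA_18m the corresponding 22 and 8 cells had 27.2 and 18.4 CPM of F13a1.

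**Figure D2:**
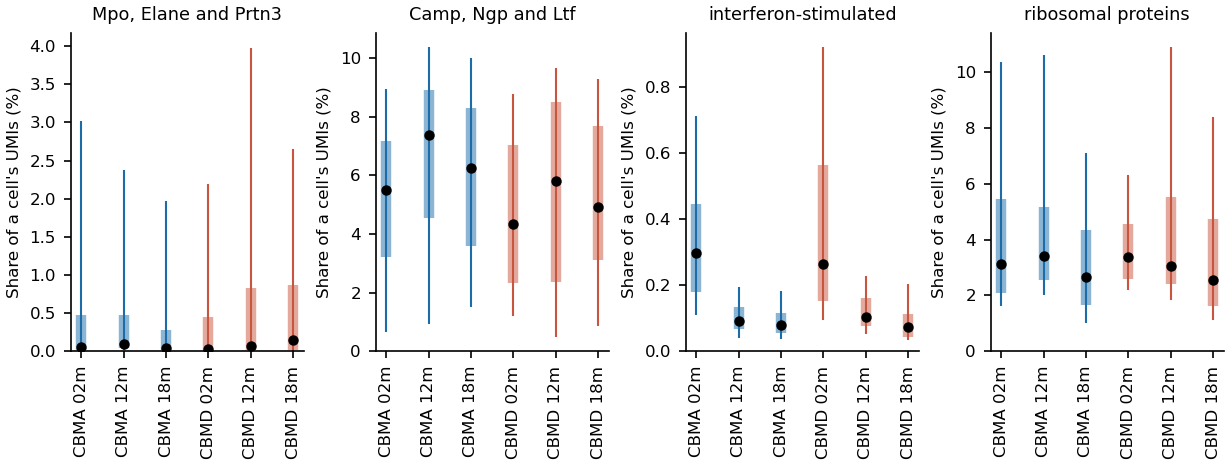
Shares of each member's UMIs (y axis, %) taken by 4 groups of transcripts in the 6 libraries, with the median over cells as a dot, the quartiles as a thick bar and the 10th and 90th percentiles as a thin line. The interferon-stimulated share has a median of 0.297% in CBMA_02m and 0.263% in CBMD_02m and lies at 0.0739% to 0.104% in the 4 older libraries.

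More genes were higher than lower in older members on the CPM scale. A gene was measured when it had at least 50 UMIs over both libraries compared and was called at a ratio of CPM of at least 1.5-fold, with no test behind the call. In CBMA at 18m against 02m, 1361 of 7185 genes were higher (18.9%) and 769 lower (10.7%). In CBMD 732 of 3245 genes were higher (22.6%) and 283 lower (8.72%). At 12m against 02m the calls were 1084 of 7705 higher (14.1%) and 438 lower (5.68%) in CBMA, and 814 of 3187 higher (25.5%) and 251 lower (7.88%) in CBMD.

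The excess of higher genes depended on the scaling. Median-of-ratios size factors gave 841 higher and 1117 lower genes in CBMA at 18m, so that 43.0% of the called genes were higher in place of 63.9%, and 45.9% in place of 72.1% in CBMD. At 12m the shares were 42.4% in place of 71.2% in CBMA and 42.6% in place of 76.4% in CBMD. On the CPM scale the median log2 ratio of all measured genes was 0.15 and 0.21 at 18m (CBMA and CBMD) and 0.16 and 0.22 at 12m, and the ratios of lists below stand against these medians. Of 3245 genes measured at both sites, 245 were higher (7.55%) and 124 lower (3.82%) at both at 18m and 24 moved in opposite directions. At 12m 167 of 3184 were higher (5.24%) and 87 lower (2.73%) at both.

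Of the lists plotted below, the interferon-stimulated genes had the lowest ratios in older members. Their summed level was 4215, 1042 and 954.5 CPM in CBMA, with 5922, 1117 and 1086 CPM in CBMD (02m, 12m and 18m). The log2 ratio at 18m was −2.14 in CBMA (95% Poisson interval −2.23 to −2.06) and −2.45 in CBMD (−2.56 to −2.33). At 12m it was −2.02 (−2.08 to −1.95) and −2.41 (−2.52 to −2.29). Both older libraries of a site were low, and neither was near the 02m level.

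In CBMA 33 of 36 measured genes on this list were lower at 18m, against 10.7% of all genes, and none was higher, with a median log2 ratio of −2.89. In CBMD 13 of 15, against 8.72% of all genes, were lower and none higher, with a median of −2.37. The same counts, 33 of 36 and 13 of 15, were found at 12m, against 5.68% and 7.88% of all genes. At both ages 12 of the 15 genes measured at both sites were lower at both, against 3.82% of all genes at 18m and 2.73% at 12m.

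Ifi27l2a, an interferon alpha-inducible protein, ranked first among the genes lower at both sites, at 18m and at 12m. It stood at 690.2, 31.8 and 6.88 CPM in CBMA and at 1646, 13.5 and 35.0 CPM in CBMD, with a log2 ratio at 18m of −6.65 (−7.78 to −5.72) and −5.55 (−6.18 to −4.99). A UMI of Ifi27l2a was found in 60.4% of CBMA_02m members (56.0 to 64.8), 14.1% in CBMA_12m (9.64 to 19.6) and 4.84% in CBMA_18m (1.80 to 10.2). Cells that were not members held more Ifi27l2a, and there too it was lower at 18m. In them it stood at 5608 CPM at 02m and 479.8 CPM at 18m in CBMA, and at 5819 and 395.6 CPM in CBMD. The part of free RNA in the level of members was not tested. The older members held more UMIs per cell, and no cell type known to lack this transcript was measured beside them. Ifitm3, a membrane protein that blocks the entry of viruses and whose promoter is shown above, stood at 1062, 205.2 and 218.7 CPM in CBMA and at 1171, 231.3 and 200.8 CPM in CBMD.

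Isg15, a ubiquitin-like modifier, stood at 124.3, 13.7 and 5.35 CPM in CBMA and at 167.9, 7.51 and 16.2 CPM in CBMD. Ly6e, a membrane protein that restricts coronaviruses, stood at 426.5, 84.7 and 95.6 CPM in CBMA and at 262.4, 112.6 and 115.9 CPM in CBMD. Slfn4, of the Schlafen family, stood at 254.3, 94.9 and 117.8 CPM in CBMA and at 464.0, 132.2 and 107.8 CPM in CBMD. For each of the 3 genes both older libraries of a site lay below the 02m library. Oasl2, Oas2, Rtp4, Rsad2, Trim30a and Ddx58, all antiviral genes or RNA sensors, followed with log2 ratios at 18m of −3.23, −4.62, −3.59, −1.93, −1.58 and −1.33 in CBMA. Reads of the Ifitm, Oas, Slfn and H2 families can be split among close copies, which makes single members of these families uncertain. Ifitm2 missed the call in CBMA, with log2 ratios of −0.39 in CBMA and −1.04 in CBMD at 18m.

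The difference was also present within each maturation class. Among azurophil-rich members of CBMA the list stood at 3019, 909.3 and 754.8 CPM, and among the remaining members at 4960, 1144 and 1077 CPM (02m, 12m and 18m). In CBMD the azurophil-rich members had 4288, 1201 and 1148 CPM and the remaining members 6371, 1063 and 1018 CPM. Without the members under 1% granule transcripts, an alternative chosen after the data were seen, the ratio at 18m in CBMA was −1.91. A list comparison added after the data were seen took 12m members with a Y-linked UMI and no Xist UMI (49 cells in CBMA and 10 in CBMD). In them the 12m ratios were −2.20 in CBMA and −2.20 in CBMD.

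MHC class I genes, many of which interferon also induces, were lower by a smaller amount. The list stood at 3691, 2488 and 2347 CPM in CBMA and at 3657, 2769 and 1927 CPM in CBMD, a log2 ratio at 18m of −0.65 (−0.71 to −0.60) and −0.92 (−1.03 to −0.82). In CBMA 11 of 16 measured genes were lower at 18m, against 10.7% of all genes, and in CBMD 7 of 12, against 8.72%, with none higher. H2-D1 and H2-K1, the classical class I heavy chains, had log2 ratios of −0.63 and −0.72 in CBMA and −1.18 and −1.23 in CBMD. Tap1, the peptide transporter, had −0.81 and −0.60 and Psmb9, an immunoproteasome subunit, −0.93 and −1.04 in CBMA and CBMD. B2m, the class I light chain, had −0.56 and −0.82 and missed the call in CBMA.

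**Figure D3:**
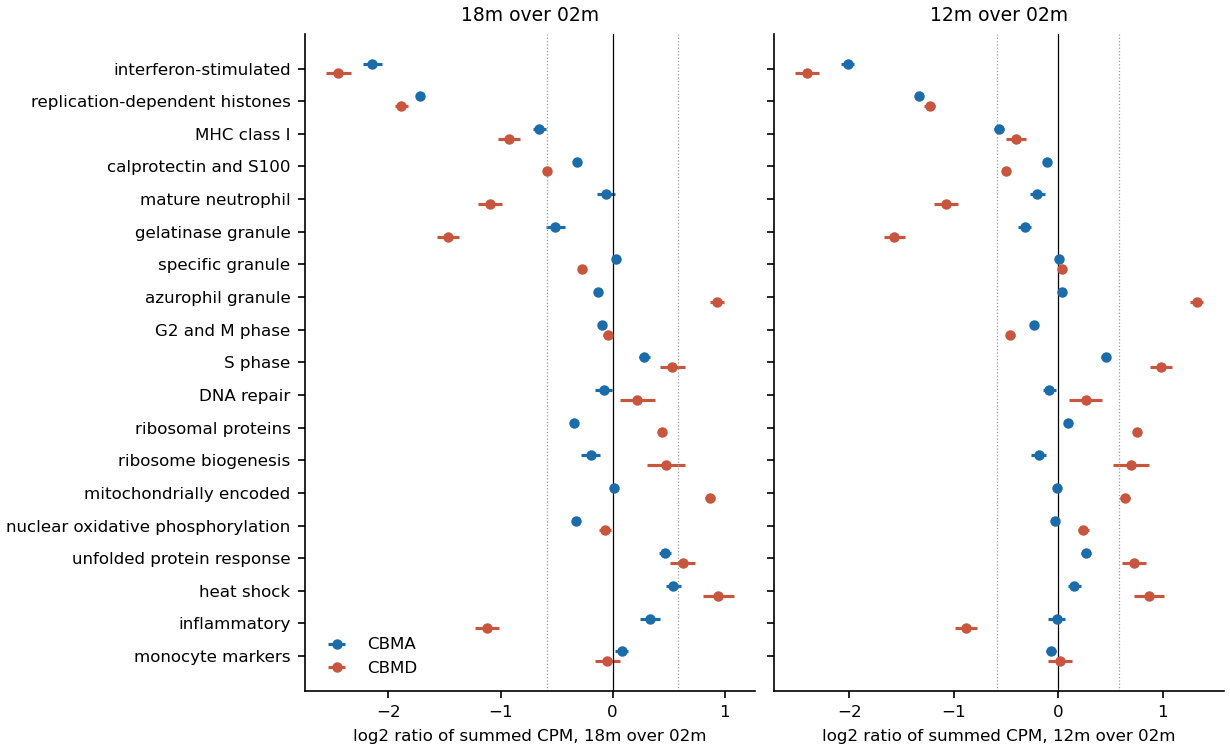
log2 ratio of the summed CPM of each list (x axis) at 18m over 02m and 12m over 02m in CBMA and CBMD, with Poisson 95% intervals as bars and dotted lines at 1.5-fold. The interferon-stimulated list lies between −2.02 and −2.45 and the replication-dependent histones between −1.23 and −1.89, while G2 and M phase lies between −0.04 and −0.46.

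Transcripts of replication-dependent histones, which package newly made DNA, were also lower in older members. They summed to 24268, 9620 and 7377 CPM in CBMA and to 17855, 7602 and 4832 CPM in CBMD, a log2 ratio at 18m of −1.72 (−1.75 to −1.69) and −1.89 (−1.94 to −1.83). In CBMA 46 of 49 measured genes were lower, against 10.7% of all genes, and in CBMD 31 of 34, against 8.72%, with none higher. At 12m the list had 48 of 50 lower in CBMA, against 5.68% of all genes, and 33 of 36 in CBMD, against 7.88%. Hist1h1d, a linker histone, stood at 2221, 476.2 and 266.9 CPM in CBMA and at 1327, 380.0 and 214.2 CPM in CBMD. The histone genes that the ranking named, Hist1h2ac, Hist2h2bb, Hist1h2bj, Hist1h2be, Hist1h2br, Hist1h2bc and Hist2h2aa1, encode core histones and had log2 ratios at 18m of −3.73 to −2.17 in CBMA and −3.11 to −2.68 in CBMD. They form a family of near-identical copies, so the level of a single copy is uncertain.

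These messages end in a stem-loop and mostly lack a poly(A) tail, and the labels give polyA RNA as the molecule captured. Rn7sk, the 7SK small nuclear RNA that also lacks such a tail, was likewise lower, at 3647, 419.7 and 153.7 CPM in CBMA and at 1722, 578.2 and 148.2 CPM in CBMD. Gm42418, a gene model that overlaps ribosomal RNA sequence, went the other way at 18m, at 15802, 5395 and 50643 CPM in CBMA and at 17937, 11317 and 56985 CPM in CBMD. Mir6236, a microRNA gene model, stood at 1254, 1277 and 7208 CPM in CBMA and at 2515, 3336 and 8723 CPM in CBMD. H2afz, a histone variant whose message is polyadenylated, had log2 ratios at 18m of 0.24 in CBMA and −0.06 in CBMD. H3f3b, another histone variant gene, was lower at 18m, at 1579, 1068 and 810.7 CPM in CBMA and at 1732, 1479 and 827.3 CPM in CBMD. Whether the missing tail had a part in these levels was not tested.

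Shifts of these RNAs were also found in other cells, though of differing size. Rn7sk was lower at 18m in cycling monocytes (at least 1 UMI of Csf1r, 2 of Ly6c2 and 2 of Mki67 and Top2a), with log2 ratios of −4.11 in CBMA and −6.26 in CBMD, and in T cells, with −6.01 and −5.92, against −4.57 and −3.54 in the members. Histones had −0.69 and −0.84 in cycling monocytes and −2.16 and −2.78 in T cells, against −1.72 and −1.89 in the members. The interferon-stimulated list had −1.41 and −1.53 in cycling monocytes, −1.89 and −2.03 in T cells and −1.81 and −1.32 in B-lineage cells, against −2.14 and −2.45 in the members. Gm42418 had 1.10 and 1.55 in cycling monocytes against 1.68 and 1.67 in the members. In CBMA it differed less in T cells, at 106110 CPM at 02m and 131892 CPM at 18m, and in B-lineage cells, at 71381 and 73571 CPM. In CBMD it stood at 47317 and 150340 CPM in T cells and at 39118 and 98356 CPM in B-lineage cells. Whether 1 cause ran through all cells of a library was not tested, and with 1 library per condition age and library cannot be told apart.

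**Figure D4:**
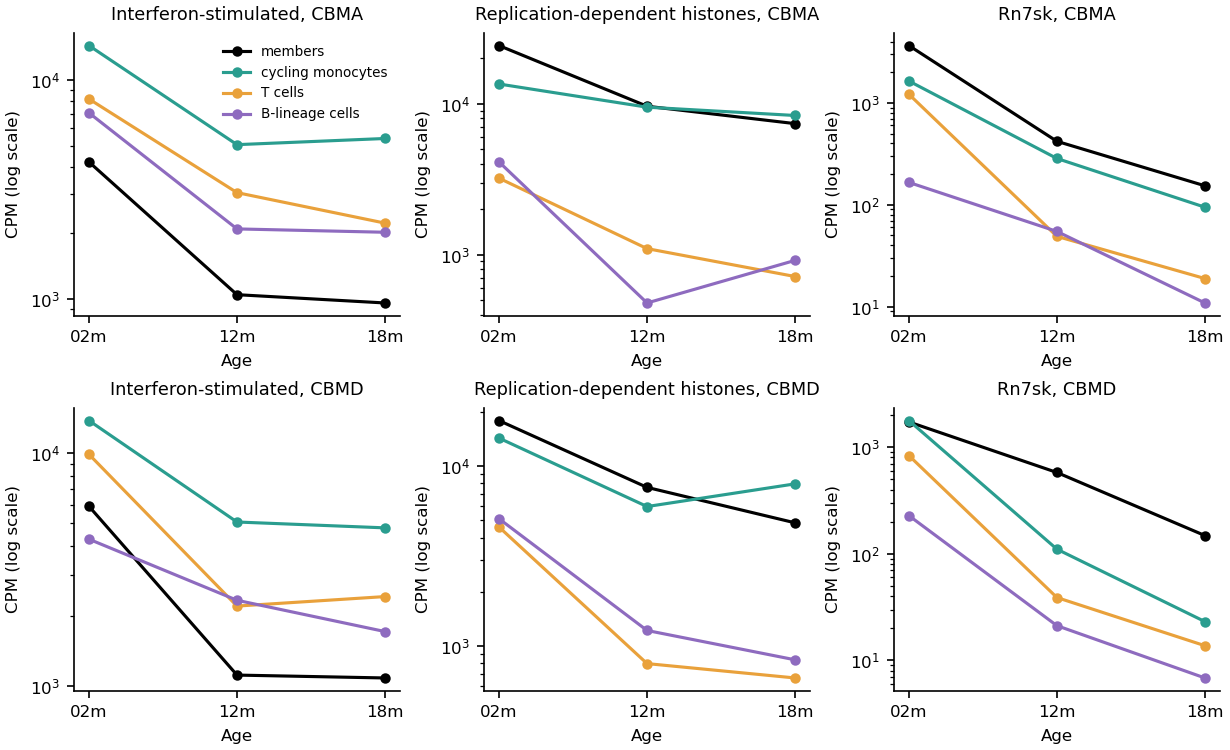
Summed CPM (y axis, log scale) of interferon-stimulated genes, replication-dependent histones and Rn7sk by age in CBMA (top) and CBMD (bottom), with 1 line each for members, cycling monocytes, T cells and B-lineage cells. The interferon-stimulated level of members is 4215 CPM at 02m and 954.5 CPM at 18m in CBMA, and in cycling monocytes it is 14368 and 5400 CPM.

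Transcripts of DNA synthesis leaned higher in older members, while the summed level of mitosis genes differed little at 18m and was lower at 12m. The S phase list stood at 2939, 4023 and 3576 CPM in CBMA and at 1976, 3911 and 2861 CPM in CBMD, a log2 ratio at 18m of 0.28 (0.23 to 0.33) and 0.53 (0.42 to 0.65). In CBMA 11 of 43 measured genes were higher and 1 lower at 18m, and in CBMD 11 of 26 were higher and none lower. At 12m 16 of 44 were higher in CBMA, against 14.1% of all genes, and 20 of 28 in CBMD, against 25.5%. At 18m the CBMA share of 11 in 43 stood against 18.9% of all genes and the CBMD share of 11 in 26 against 22.6%.

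Slbp, the protein that binds the stem-loop of histone messages, was higher at both sites and ages, at 103.1, 214.9 and 174.4 CPM in CBMA and at 60.9, 108.1 and 125.3 CPM in CBMD. Mcm3, a subunit of the replicative helicase, stood at 73.0, 117.0 and 117.8 CPM in CBMA and at 44.1, 120.1 and 109.1 CPM in CBMD, and Atad2, a chromatin-bound ATPase, had log2 ratios at 18m of 0.76 and 0.70. Cdk6, a kinase of the G1 phase, stood at 66.5, 139.9 and 125.4 CPM in CBMA and at 75.6, 151.7 and 168.4 CPM in CBMD, but the stricter rule described further on gave a log2 ratio of −0.15 in CBMD at 12m. Pcna, the sliding clamp of DNA polymerases, was higher at both sites at 12m only, with log2 ratios of 0.75 and 1.08 at 12m and of 0.48 and 0.25 at 18m in CBMA and CBMD.

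The G2 and M phase list stood at 15560, 13235 and 14588 CPM in CBMA and at 15863, 11549 and 15379 CPM in CBMD. Its log2 ratio at 18m was −0.09 (−0.12 to −0.07) in CBMA and −0.04 (−0.09 to −0.00) in CBMD, whereas the medians over its genes were 0.07 and 0.33, so the sum and the median differed in sign. At 12m the ratio was −0.23 (−0.25 to −0.21) in CBMA and −0.46 (−0.50 to −0.41) in CBMD, with medians of −0.08 and −0.01. The sum leans on Hmgb2, a chromatin protein at 5883, 4292 and 4611 CPM in CBMA and at 7348, 3343 and 4619 CPM in CBMD. In CBMA 2 of 64 measured genes were higher and 1 lower at 18m, against 18.9% and 10.7% of all genes, so fewer were called than among all genes. In CBMD 13 of 60 were higher and 1 lower, against 22.6% and 8.72%, and the share higher was near that of all genes. With histones, Rn7sk, Gm42418 and Mir6236 left out of the total, the CBMD ratio was 0.00. Lbr, the lamin B receptor required for lobed neutrophil nuclei, had log2 ratios of 0.75 and 0.60 at 18m. It was the 1 gene of 60 called higher at both sites, against 7.55% of all genes.

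Azurophil genes differed between the sites. In CBMA the list stood at 10324, 10586 and 9448 CPM, a log2 ratio at 18m of −0.13 (−0.16 to −0.10), with 1 of 13 measured genes higher and 2 lower against 18.9% and 10.7% of all genes, and a stricter rule (at least 4 UMIs of Fcnb, 20 granule UMIs and 4 cycle UMIs) gave 0.03. In CBMD it stood at 5586, 14021 and 10666 CPM, a ratio of 0.93 (0.87 to 1.00), with 7 of 11 genes higher, against 22.6% of all genes, and none lower. The stricter rule gave 0.55 in CBMD, so the sites did not have opposite signs under it. In 12m members with a Y-linked UMI and no Xist UMI (49 cells in CBMA and 10 in CBMD) the 12m ratios were 0.67 and 2.43. In all 12m members they were 0.04 and 1.33. Mpo (myeloperoxidase) stood at 2197, 2418 and 2027 CPM in CBMA and at 560.5, 3103 and 2369 CPM in CBMD. Elane (neutrophil elastase) stood at 2789, 2875 and 2491 CPM in CBMA and at 1663, 4087 and 2820 CPM in CBMD. The CBMD_02m library, with 67 members, was thus the lowest of all for both genes.

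That CBMD_02m library also held the most late granule transcripts. The gelatinase granule list stood at 5017 CPM in CBMD_02m, 1691 CPM in CBMD_12m and 1816 CPM in CBMD_18m, a log2 ratio at 18m of −1.47 (−1.56 to −1.37), and at 1695, 1357 and 1191 CPM in CBMA, a ratio of −0.51 (−0.59 to −0.43). Of 8 measured genes 5 were lower in CBMD, against 8.72% of all genes, and 4 in CBMA, against 10.7%, with none higher. Retnlg, a resistin-like secreted protein, stood at 3325, 639.8 and 724.9 CPM in CBMD and at 737.4, 336.8 and 275.3 CPM in CBMA. Mmp9, the gelatinase itself, stood at 264.5, 115.6 and 71.4 CPM in CBMD and at 96.6, 91.4 and 46.7 CPM in CBMA. The CBMD ratio depended on which cells were taken. It was −0.72 without the members under 1% granule transcripts and −0.05 when each cell was thinned to 3000 UMIs before the rule. In CBMA the ratio was 0.16 with likely doublets left out.

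Genes of mature neutrophils were lower in CBMD. There the list stood at 3378, 1601 and 1582 CPM and 11 of 16 measured genes were lower at 18m, against 8.72% of all genes, with none higher. The log2 ratio of −1.09 was −0.12 under the stricter rule and −0.95 without the members under 1% granule transcripts. In CBMA the list stood at 1365, 1189 and 1311 CPM, with 3 of 18 genes higher, near the 18.9% of all genes, and 7 lower, against 10.7%. Stfa1 and Stfa2l1, which encode stefin A protease inhibitors, and the related gene model Gm5483 were lower at both sites at 18m, with log2 ratios of −0.99, −1.80 and −3.13 in CBMA and −6.12, −4.59 and −3.00 in CBMD, though under the stricter rule Gm5483 in CBMD was at 0.19. Ly6g stood at 126.7, 106.8 and 55.8 CPM in CBMA and at 128.1, 99.1 and 25.6 CPM in CBMD. Selplg, the ligand of P-selectin, had log2 ratios of −0.80 and −1.82.

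Specific granule genes outside the rule differed little. The list stood at 32840, 33065 and 33456 CPM in CBMA and at 31408, 32305 and 26004 CPM in CBMD, a log2 ratio at 18m of 0.03 (0.01 to 0.04) in CBMA, where the median over genes was −0.08 and size factors gave −0.13, and of −0.27 (−0.30 to −0.24) in CBMD. At 12m the CBMD ratio was 0.04, but −0.71 in the 10 members of CBMD_12m with a Y-linked UMI and no Xist UMI. At 18m Cd63, a granule membrane tetraspanin, was the 1 gene of 15 called higher at both sites, near the 7.55% of all genes. It stood at 267.6, 367.2 and 465.0 CPM in CBMA and at 193.1, 389.0 and 359.8 CPM in CBMD. Calprotectin and its relatives summed to 249468, 232283 and 200296 CPM in CBMA and to 276921, 195588 and 184451 CPM in CBMD. Within that list S100a6, a calcium-binding protein, stood at 705.3, 243.2 and 283.0 CPM in CBMA and at 2160, 319.9 and 385.4 CPM in CBMD. NADPH oxidase genes, which encode the enzyme of the respiratory burst, stood at 4774, 5135 and 5191 CPM in CBMA and at 4761, 4735 and 4583 CPM in CBMD.

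Among transcription factors of the lineage, Cebpe stood at 467.8, 495.7 and 388.5 CPM in CBMA and at 455.6, 343.9 and 349.0 CPM in CBMD, and Spi1 (PU.1) at 484.1, 406.9 and 367.9 CPM and at 495.4, 375.5 and 460.8 CPM, without a call at both sites. Of 15 factors measured at both sites at 18m, Ets1, Xbp1 and Klf2 were called higher at both, against 7.55% of all genes, and none lower. Xbp1, a factor of the unfolded protein response, had log2 ratios of 0.79 and 0.62, Klf2 0.67 and 0.90 and Ets1 0.74 and 0.69. Among 8 growth factor receptors measured at both sites at 18m none was called at both. Of all genes 7.55% were higher and 3.82% lower at both, so the absence of a call does not set the receptors apart. Csf3r, the G-CSF receptor, stood at 161.5, 212.7 and 172.1 CPM in CBMA and at 293.9, 171.2 and 206.2 CPM in CBMD.

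Chaperones stood higher in 18m members. Genes of the unfolded protein response summed to 2446, 2949 and 3386 CPM in CBMA and to 1889, 3131 and 2916 CPM in CBMD, with log2 ratios at 18m of 0.47 (0.42 to 0.52) and 0.63 (0.51 to 0.74). In CBMA 9 of 19 measured genes were higher, against 18.9% of all genes, and 1 lower, and in CBMD 9 of 14 were higher, against 22.6%, and none lower. Hsp90b1, the HSP90 of the endoplasmic reticulum, stood at 270.8, 405.6 and 517.8 CPM in CBMA and at 266.6, 392.0 and 495.8 CPM in CBMD, and Canx (calnexin) had ratios of 0.96 and 1.00. Heat shock genes summed to 1607, 1790 and 2343 CPM in CBMA and to 1174, 2140 and 2258 CPM in CBMD, and at 18m 9 of 11 genes were higher and 1 lower in CBMA and 4 of 6 higher and none lower in CBMD, against the same 18.9% and 22.6% higher. Hsp90aa1, a cytosolic HSP90, stood at 332.0, 379.1 and 607.3 CPM in CBMA and at 304.4, 405.5 and 547.0 CPM in CBMD. Heat shock genes also had ratios of 0.76 and 1.18 in T cells and 0.28 and 0.43 in cycling monocytes, and genes induced by tissue dissociation had 0.38 in CBMA and −0.19 in CBMD members. The part of dissociation in the chaperone levels was not tested.

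Inflammatory genes differed in direction between the sites. The list stood at 859.7, 850.9 and 1085 CPM in CBMA, a log2 ratio at 18m of 0.34 (0.24 to 0.43) with 7 of 17 measured genes higher and 4 lower, against 18.9% and 10.7% of all genes. In CBMD it stood at 3422, 1856 and 1574 CPM, a ratio of −1.12 (−1.23 to −1.01) with 1 of 10 genes higher and 6 lower, against 22.6% and 8.72%. The stricter rule turned the CBMD ratio to 0.50, so the sites then had the same sign, and without the members under 1% granule transcripts it was −0.93. Cxcl2, a chemokine that draws neutrophils, stood at 110.2, 57.4 and 133.1 CPM in CBMA and at 1308, 363.5 and 331.5 CPM in CBMD. Il1b, which encodes interleukin 1 beta, stood at 41.6, 60.5 and 101.7 CPM in CBMA and at 314.9, 181.7 and 195.4 CPM in CBMD. CBMD_02m held the highest level of both. Ccl6, a CC chemokine, was lower at both sites at 18m, with ratios of −1.20 and −1.09, and Osm (oncostatin M) was higher, at 10.9, 28.3 and 42.8 CPM in CBMA and at 31.5, 61.6 and 49.9 CPM in CBMD.

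The summed level of ribosomal protein transcripts went in opposite directions at the 2 sites, but the median share per cell did not. They summed to 60035, 64004 and 47355 CPM in CBMA, a log2 ratio at 18m of −0.34 (−0.36 to −0.33) with 16 of 76 genes lower, against 10.7% of all genes, and none higher, and to 38542, 65092 and 52213 CPM in CBMD, a ratio of 0.44 (0.41 to 0.46) with 30 of 76 higher, against 22.6%, and none lower. As the mean over cells of each cell's CPM the CBMD ratio was −0.01, so its direction depended on how cells were weighted. The median share of a cell's UMIs was 3.133% at 02m and 2.676% at 18m in CBMA. In CBMD it was 3.385% and 2.555%, so the median was lower at 18m at both sites. Azurophil-rich cells, which carried the most ribosomal protein transcripts, were 31.3% of members in CBMD_02m and 50.6% in CBMD_18m. Their part in the ratio was not tested. Mitochondrially encoded genes summed to 15649, 15545 and 15826 CPM in CBMA and to 11933, 18577 and 21842 CPM in CBMD.

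The genes higher at both sites at 18m were ranked by the smaller of their site ratios. Apart from Mir6236 and Gm42418, out of 100 genes with at least 100 UMIs per site and intervals that excluded a ratio of 1, the ranking named Tanc1, Tiparp, Lrrc8d, Atrn, Tram1, Cemip2, Jun, Slc38a1, Pum2 and mt-Nd3. Tanc1 stood at 23.6, 45.5 and 65.0 CPM in CBMA and at 23.1, 48.1 and 130.7 CPM in CBMD. Lrrc8d, a subunit of the volume-regulated anion channel, stood at 47.0, 62.7 and 104.0 CPM in CBMA and at 31.5, 130.7 and 148.2 CPM in CBMD. Both were lowest at 02m at each site. Tiparp, an ADP-ribosyltransferase, had log2 ratios of 1.70 and 1.19, Atrn (attractin) 1.10 and 1.26, and Tram1, a protein of the translocon, 1.16 and 1.07. Cemip2, a membrane hyaluronidase, had 1.19 and 1.00, Slc38a1, a glutamine transporter, 0.99 and 1.05, and Pum2, an RNA-binding repressor of translation, 0.98 and 1.11.

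Jun, a subunit of the AP-1 factor, stood at 396.0, 312.5 and 789.3 CPM in CBMA and at 547.9, 929.7 and 1172 CPM in CBMD. CBMA_12m lay below CBMA_02m, so Jun was not higher in every older library. mt-Nd3, a subunit of complex I, stood at 355.0, 743.7 and 696.8 CPM in CBMA and at 132.3, 677.3 and 1025 CPM in CBMD. Trp53, which encodes p53, was called higher at both sites and both ages, at 36.0, 58.7 and 57.4 CPM in CBMA and at 21.0, 69.1 and 63.3 CPM in CBMD.

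At 12m the ranking gave partly other genes. The highest were mt-Co3, mt-Atp6, Nr4a1, Rpl15, mt-Nd3, Cdk6, Rps7 and Stt3b, and of these mt-Co3, mt-Atp6, Rpl15 and Rps7 were not called at 18m at either site. mt-Atp6, a subunit of ATP synthase, stood at 78.0, 214.9 and 58.1 CPM in CBMA and at 46.2, 316.9 and 62.0 CPM in CBMD. Nr4a1, an orphan nuclear receptor of the immediate early response, stood at 24.2, 103.7 and 97.1 CPM in CBMA and at 86.1, 199.7 and 79.5 CPM in CBMD. Stt3b, a catalytic subunit of oligosaccharyltransferase, had log2 ratios at 12m of 0.88 and 1.49. The lowest besides interferon and histone genes were Wfdc17, a secreted protein with a WAP domain, at 86.5, 7.06 and 47.4 CPM in CBMA and at 600.4, 9.01 and 18.9 CPM in CBMD, and Gm5483.

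Transcripts of other cell types differed between the libraries. B-lineage markers summed to 119.6, 1066 and 400.8 CPM in CBMA and to 67.2, 648.8 and 427.1 CPM in CBMD, mostly as Igkc at 40.5, 689.4 and 177.4 CPM in CBMA and at 8.40, 393.5 and 225.0 CPM in CBMD. Erythroid markers summed to 56.4, 181.0 and 87.2 CPM in CBMA and to 14.7, 3672 and 29.6 CPM in CBMD, and Hbb-bs stood at 1807 CPM in CBMD_12m members and at 2354 CPM in T cells of that library. Monocyte markers summed to 2684, 2566 and 2838 CPM in CBMA, a log2 ratio at 18m of 0.08, but the median over genes was −1.92, with 10 of 14 lower and 2 higher, against 10.7% and 18.9% of all genes. The part of such transcripts in the gene calls was not tested.

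Within each library the members were set against non-cycling precursors, which met the Fcnb, granule and Csf1r conditions but had no UMI of Mki67 or Top2a. These numbered 61, 42 and 15 in CBMA, with 10, 22 and 5 in CBMD (02m, 12m and 18m). Summed list levels were compared over the 6 libraries with an exact two-sided sign-flip permutation test, whose smallest p is 0.03125. Benjamini-Hochberg adjustment ran over 56 tests. Most of these tests are not described below. Those left out include the factor and monocyte lists and, against cycling monocytes, the calprotectin and azurophil lists. Against non-cycling precursors, nuclear oxidative phosphorylation genes also had p = 0.03125 (exact permutation test, n = 6 libraries), with a mean log2 ratio of 0.44. The inflammatory, dissociation, and basophil and mast lists had the same p, with −0.59, −0.65 and −1.23. No list passed 0.05 after adjustment, since the smallest adjusted p was 0.0515 (exact permutation test, n = 6 libraries), and libraries of 1 age may share mice.

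Heat shock genes were higher in members in 6 of 6 libraries, with a mean log2 ratio of 0.54 ± 0.29 (SD, exact permutation p = 0.03125, n = 6). The list of lineage factors had 0.95 ± 0.16, but it includes Hmgb2, a gene also on the G2 and M phase list, so this value follows in part from the rule and is given without a test. Without Hmgb2, a comparison added after the data were seen, the factors had 0.35 ± 0.12 and were above 0 in 6 of 6 libraries. Gelatinase granule genes were lower in 6 of 6 libraries, with −1.09 ± 0.68, as were genes of retention and adhesion, with −0.44 ± 0.10, and NADPH oxidase genes, with −0.29 ± 0.12 (exact permutation p = 0.03125 each, n = 6). Azurophil genes were higher in 5 of 6, with 1.64 ± 1.52 (exact permutation p = 0.09375, adjusted p = 0.119), and the exception was CBMD_02m, at 5586 CPM in members against 10984 CPM in non-cycling precursors. Interferon-stimulated genes were lower in 5 of 6, with −0.85 ± 0.67 (exact permutation p = 0.0625).

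Outside the genes the rule used, Hmmr, a spindle protein, stood at 100.2 to 264.1 CPM in members against 0 to 7.58 CPM in non-cycling precursors, and Prc1, a bundler of microtubules in the dividing cell, at 178.8 to 245.4 CPM against 0 to 17.0 CPM. Smc2, a condensin subunit, stood at 213.3 to 363.8 CPM against 0 to 22.9 CPM, and Knl1, of the kinetochore, at 126.2 to 212.9 CPM against 0 to 17.0 CPM. Their promoters are those shown above. Genes lower in members in all 6 libraries included Ifitm6 (mean log2 ratio −2.05 ± 0.37), Fpr2 (−2.46 ± 1.18), a receptor for formylated peptides, Ly6g (−2.24 ± 1.24), Lgals3 (−1.78 ± 0.60), which encodes galectin 3, and Mmp9 (−2.57 ± 1.30). Members and comparison cells differed by the cycle genes of the rule, so the cycle lists were not tested.

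Against cycling monocytes of the same libraries (1000, 94 and 262 cells in CBMA, with 711, 72 and 259 in CBMD), members were higher in calprotectin and S100 genes, with 3.73 ± 0.88, and in azurophil genes, with 1.45 ± 0.45. They were lower in ribosomal proteins, with −1.52 ± 0.39, interferon-stimulated genes, with −2.02 ± 0.46, and MHC class I, with −0.99 ± 0.12. All these differences had 1 direction in 6 of 6 libraries (SD over 6 libraries). For the lists lower in members the exact permutation p was 0.03125 each (adjusted p = 0.0515). The calprotectin and azurophil directions follow in part from the choice of members on neutrophil genes, so these lists carry no test. Monocyte markers had −2.68 ± 0.18, which the choice of both sets on Csf1r fixes in direction, and carry no test. G2 and M phase genes stood at 11549 to 15863 CPM in members against 12465 to 16774 CPM in cycling monocytes, with a mean log2 ratio of −0.03 ± 0.10. Non-cycling immature neutrophils without Fcnb, a set defined after the data were seen and therefore not tested, had gelatinase granule genes at 19460 to 39470 CPM against 1191 to 5017 CPM in members.

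**Figure D5:**
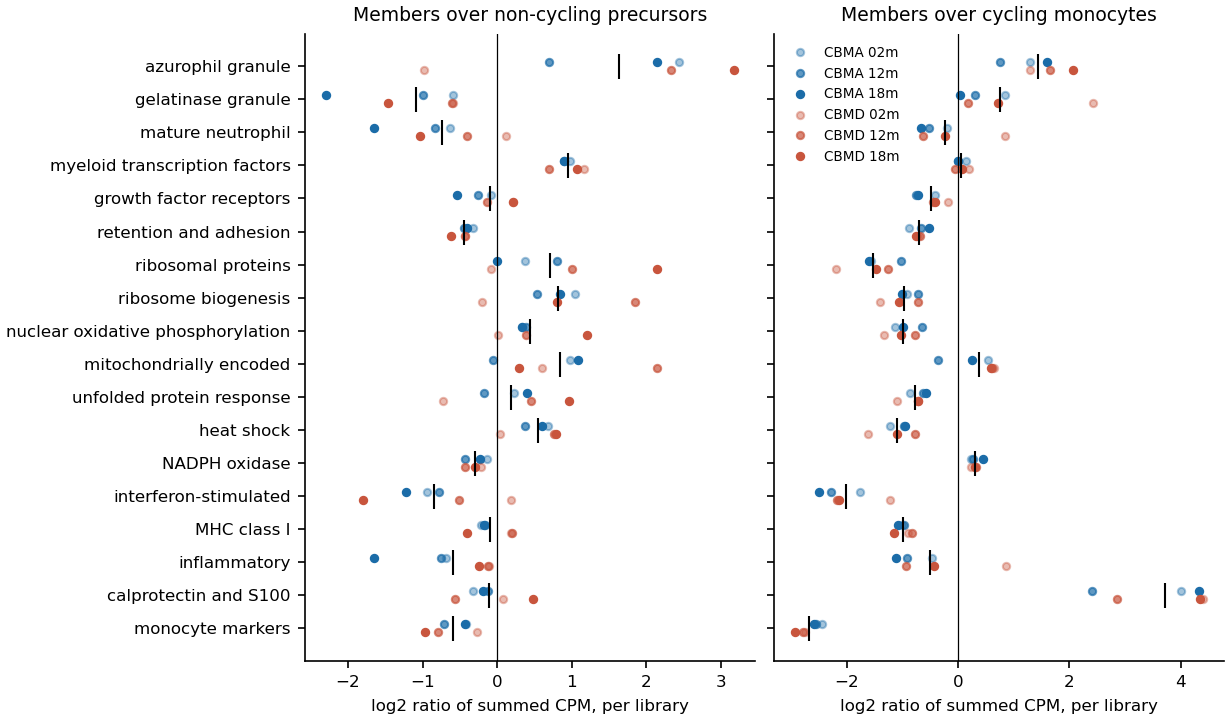
log2 ratio of summed list CPM (x axis) of members over non-cycling precursors and over cycling monocytes, with 1 point per library and the mean as a vertical tick. Heat shock genes lie right of 0 in 6 of 6 libraries against non-cycling precursors, with a mean of 0.54. So do calprotectin genes against cycling monocytes, with a mean of 3.73, a direction that follows in part from how the members were chosen.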

How the data were processed

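Single-cell suspensions from 6 libraries were captured with 10x Genomics chemistry, and the labels give polyA RNA. Per the study's methods the authors used bcl2fastq 2.20 and Cell Ranger 5.0.1, and GRCm38 is named in the submitters' processing notes. The deposited matrices hold UMI counts per gene and barcode, which are whole numbers and not normalized.

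Barcodes with at least 500 and at most 5000 genes, more than 500 UMIs and a mitochondrial share below 25% were kept (37576 of 43420), and the rule on Fcnb, Camp, Ngp, Ltf, Mki67, Top2a and Csf1r was applied. The members and the gene lists were chosen with earlier results of these data known. Member counts were summed per library and scaled to CPM. Ratios were computed for genes with at least 50 UMIs over both libraries and called at 1.5-fold, with exact 95% Poisson intervals; shares have Clopper-Pearson intervals. Cells were thinned to 3000 UMIs to equalise depth. Doublets were ranked with Scrublet in scanpy 1.11.5 at 0.8% per 1000 barcodes (2393 barcodes, 47 of them members) and left out only as an alternative. Comparator lists were tested over the 6 libraries with an exact sign-flip permutation test. The scripts were tested on simulated data.

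Named genes were those called in 1 direction at both sites with at least 100 UMIs per site, ranked by the smaller of the site ratios (12 per direction at 18m, 8 at 12m, with sex chromosome, immunoglobulin and hemoglobin genes counted apart), the most abundant members of each list and the leading genes against non-cycling precursors. Genes named outside this rule were chosen after their values were seen. Python 3.11.15, numpy 2.4.6, scipy 1.17.1, pandas 2.3.3 and matplotlib 3.10.9 were used.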

Additional observations from a re-analysis of the deposited data

Results flagged for a closer look

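Xist was present in 12m members, at 732 CPM in CBMA_12m and 1260 CPM in CBMD_12m, although the mice are stated to be male, and it had 0 UMIs in members of 02m and 18m. The azurophil list had a log2 ratio of 18m over 02m of −0.13 in CBMA and 0.93 in CBMD, so the sites moved in opposite directions. The inflammatory list did so as well, with 0.34 in CBMA and −1.12 in CBMD. Under the stricter rule neither did, with 0.033 in CBMA and 0.55 in CBMD for the azurophil list and 0.58 and 0.50 for the inflammatory list. At 12m over 02m the ribosome biogenesis list had −0.19 in CBMA and 0.70 in CBMD. None of these differences between the sites was tested, since each rests on 1 library per age and site.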

How the results depend on the processing

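No paired analysis was possible because each age and site has 1 library and the labels give no shared replicate numbers between groups. A stricter rule (at least 4 UMIs of Fcnb, 20 of Camp, Ngp and Ltf and 4 of Mki67 and Top2a) gave shares of 3.85%, 5.74% and 1.40% in CBMA and 0.478%, 1.12% and 0.921% in CBMD (02m, 12m and 18m). Under it 481 genes were lower in CBMA at 18m, 475 were higher and 173 lower in CBMD at 18m, 64 were lower at both sites at 18m, 492 were higher in CBMD at 12m and 56 were lower at both sites at 12m. Its list ratios at 18m were 0.033 (CBMA) and 0.55 (CBMD) for azurophil, −0.012 for specific granule in CBMA, −1.88 and −1.65 for interferon-stimulated and −0.20 for G2 and M phase in CBMD. It turned the sign of the inflammatory list in CBMD at 18m (0.50), of Gm5483 in CBMD at 18m (0.19) and of Cdk6 in CBMD at 12m (−0.15), and the cause was not tested. Keeping members with at least 1% granule transcripts, an alternative chosen after the data were seen, gave 5.14% in CBMA_02m and 18m ratios of −0.22 for azurophil, −0.015 for specific granule and −1.91 for interferon-stimulated in CBMA, and −0.089 for G2 and M phase in CBMD, while 22 other list and gene ratios left their counting interval. Thinning each cell to 3000 UMIs before the rule gave 10.7% in CBMA_12m and 1.73% in CBMD_18m, with 597 higher and 447 lower in CBMA at 18m, 124 and 98 in CBMD, and 51 and 45 at both sites. At 12m it gave 662 and 226 in CBMA, 90 and 59 in CBMD, and 35 and 23 at both sites, from fewer UMIs. Its 18m ratios were −0.38 and 0.50 for azurophil, −0.029 and −0.22 for specific granule, −2.05 and −1.88 for interferon-stimulated and −0.068 and −0.21 for G2 and M phase in CBMA and CBMD. Without the upper limit on genes, 437 were lower in CBMD at 12m and 277 were higher and 134 lower at both sites, with 18m ratios of −0.10 and 1.38 for azurophil, 0.080 and −0.32 for specific granule and −2.27 and −2.75 for interferon-stimulated. Size factors gave 841 higher in CBMA, 399 higher and 471 lower in CBMD and 111 higher at both sites at 18m, and 552 higher and 751 lower in CBMA, 395 and 533 in CBMD and 61 and 133 at both sites at 12m. Their 18m ratios were −0.29 and 0.72 for azurophil, −0.13 and −0.48 for specific granule, −2.30 and −2.66 for interferon-stimulated and −0.25 and −0.25 for G2 and M phase. A minimum of 200 UMIs gave 441 higher and 287 lower in CBMA, 131 and 69 in CBMD and 36 and 31 at both sites at 18m, and 311 and 149, 138 and 66, and 19 and 27 at 12m, from fewer genes. A threshold of 2-fold gave 374 and 314 in CBMA, 199 and 129 in CBMD and 34 and 55 at both sites at 18m, and 199 and 207, 289 and 115, and 26 and 57 at 12m. The higher share of called genes was 55.9% in CBMD at 18m and 60.4% at 12m after thinning, and 60.7% in CBMD at 18m and 49.0% in CBMA at 12m at 2-fold. With both sums thinned to the smaller total 511 genes were lower in CBMA at 18m. In 12m members without Xist and with a Y-linked UMI (49 cells in CBMA and 10 in CBMD) 474 genes were higher in CBMD at 12m. Azurophil ratios at 12m, recomputed in them after the data were seen, were 0.67 and 2.43 against 0.04 and 1.33 in all 12m members. Totals without granule and rule genes gave 18m ratios in CBMA of −0.091 for azurophil, 0.064 for specific granule and −0.056 for G2 and M phase. Means over cells gave −0.23 and 0.45 for azurophil, 0.0062 and −0.18 for specific granule, −1.94 and −2.06 for interferon-stimulated and −0.13 for G2 and M phase in CBMD. Totals without Gm42418, Mir6236, Rn7sk and histones, chosen after the data were seen, gave −0.10 for azurophil in CBMA, 0.058 and −0.23 for specific granule and −0.062 and 0.0022 for G2 and M phase. Leaving out ranked doublets gave −2.03 and −2.71 for interferon-stimulated. Interferon-stimulated genes were lower at 18m at both sites under each alternative run. The CBMD results rest on 67 to 81 members per library, which left 3245 measured genes at 18m over 02m and 3187 at 12m over 02m.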
